A study of Mus musculus with 14 samples.

Results

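Open chromatin was compared between fusion-bearing mouse neural stem cells treated with GSK343, an inhibitor of the histone methyltransferase EZH2, and the same cells without the inhibitor. The comparison was made up of 4 of the 14 libraries of the series, chosen by their titles. The 2 libraries titled with GSK are called ZR_GSK343, and the 2 titled with the fusion and no agent are called ZR. ZR_GSK343 cells received 10 µM GSK343 for 96 h, and ZR cells carry a PBS vehicle label although their titles name no treatment. Both groups carry ZFTA-RELA, a fusion of a zinc finger protein gene with that of an NF-kB subunit, found in supratentorial ependymoma. Both grew in Neurobasal medium with heparin, EGF and basic FGF. The labels do not say how the fusion was introduced, whether the line is 1 clone, or whether replicates are separate cultures, so the spread between libraries may be technical. They also do not name the solvent of GSK343, so the inhibitor and its solvent cannot be told apart here. The remaining libraries, 2 per group, were used only to look regions up. They are ZR_DMSO (fusion cells titled with DMSO but labelled PBS), ZR_dmCitra and Citraconate_50K (both labelled as fusion cells with citraconate at 10 mM), EV (empty vector, replicate 1 labelled DMSO and replicate 2 PBS) and DMSO_50K (labelled empty vector, with DMSO). In the look-ups below DMSO_50K does not follow its cell line label, and Citraconate_50K does not at gained gene starts.

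EZH2 is the catalytic subunit of Polycomb repressive complex 2 (PRC2), which methylates lysine 27 of histone H3. EED and SUZ12 are its core partners, and the complex is known for silencing the CpG-rich promoters of developmental genes such as the Hox clusters and the WNT ligands. Polycomb repressive complex 1 (PRC1) contains the reader proteins of the CBX family and the ubiquitin ligases RING1 and RNF2. ATAC-seq maps accessible DNA through insertions of the Tn5 transposase. In pooled cells, opening in fewer cells and weaker opening in each cell cannot be told apart.

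The letters below show promoters of genes called either way in what follows. Wnt9a, Eef2, Mafg and Notch1 were the best ranked gene-list members with a gene-start peak in both ZR_GSK343 lists and in neither ZR list, among those with a RefSeq promoter sequence. Wdr63 (the mouse symbol of a dynein-associated protein of motile cilia) had its peak in both ZR lists and in neither ZR_GSK343 list. It was chosen after its values were seen, because the only gene-list member with that pattern, Sparcl1, has no such sequence. Each is 300 bases of RefSeq GRCm38.p6, from 250 bases before to 50 after the gene start, 5′ to 3′ on the gene's strand, with CpG dinucleotides in capitals.
Wnt9a (chr11:59306680-59306979, plus strand): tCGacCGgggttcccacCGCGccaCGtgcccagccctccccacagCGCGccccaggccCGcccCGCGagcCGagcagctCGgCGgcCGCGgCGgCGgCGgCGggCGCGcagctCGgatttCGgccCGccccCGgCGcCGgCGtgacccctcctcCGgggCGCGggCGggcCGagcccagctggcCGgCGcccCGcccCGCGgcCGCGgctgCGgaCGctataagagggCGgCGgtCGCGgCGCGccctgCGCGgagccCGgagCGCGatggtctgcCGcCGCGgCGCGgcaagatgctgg
Eef2 (chr10:81176381-81176680, plus strand): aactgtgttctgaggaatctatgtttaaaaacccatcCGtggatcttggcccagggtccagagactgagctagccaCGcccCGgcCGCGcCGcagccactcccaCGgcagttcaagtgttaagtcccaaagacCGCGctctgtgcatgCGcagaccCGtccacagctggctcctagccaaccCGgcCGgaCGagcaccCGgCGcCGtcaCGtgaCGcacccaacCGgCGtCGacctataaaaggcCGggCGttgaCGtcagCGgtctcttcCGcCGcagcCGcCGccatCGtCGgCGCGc
Mafg (chr11:120633498-120633797, minus strand): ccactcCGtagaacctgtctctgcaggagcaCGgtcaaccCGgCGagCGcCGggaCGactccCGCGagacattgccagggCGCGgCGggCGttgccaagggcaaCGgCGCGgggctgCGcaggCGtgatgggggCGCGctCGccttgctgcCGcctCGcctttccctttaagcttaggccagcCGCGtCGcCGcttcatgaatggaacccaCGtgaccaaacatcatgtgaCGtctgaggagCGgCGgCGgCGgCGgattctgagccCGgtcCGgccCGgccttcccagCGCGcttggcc
Notch1 (chr2:26503773-26504072, minus strand): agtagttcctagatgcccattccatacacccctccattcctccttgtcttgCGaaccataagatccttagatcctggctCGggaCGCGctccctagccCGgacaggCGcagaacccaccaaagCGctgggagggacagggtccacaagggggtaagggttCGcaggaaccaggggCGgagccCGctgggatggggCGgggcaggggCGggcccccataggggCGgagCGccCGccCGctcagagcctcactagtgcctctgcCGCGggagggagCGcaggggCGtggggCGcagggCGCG
Wdr63 (chr3:146107987-146108286, minus strand): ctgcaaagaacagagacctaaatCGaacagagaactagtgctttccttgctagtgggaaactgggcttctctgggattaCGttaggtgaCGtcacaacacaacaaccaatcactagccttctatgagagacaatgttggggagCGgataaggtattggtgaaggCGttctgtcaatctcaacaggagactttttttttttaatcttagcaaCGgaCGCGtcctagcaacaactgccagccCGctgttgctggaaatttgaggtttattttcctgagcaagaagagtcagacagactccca
The number of CpG dinucleotides was 58 in the Wnt9a promoter, 34 in Eef2, 39 in Mafg, 23 in Notch1 and 9 in Wdr63. The first 3 lie above the upper quartile of 31 over promoters of gained genes. All 5 windows overlapped the best peak of both libraries that held it. For Wdr63 the overlap in ZR replicate 1 was a condition of its choice, which the better ranked lost gene Zfp503 did not meet.

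The lists differed between libraries before any region was compared. On chromosomes 1 to 19 the deposited lists held 18324 and 55369 peaks in ZR_GSK343 replicates 1 and 2, against 43390 and 43094 in ZR replicates 1 and 2. The ZR_GSK343 lists therefore lay on either side of the ZR lists. The means were 36846.5 ± 26194.8 peaks in ZR_GSK343 and 43242 ± 209 in ZR (SD, n = 2 each; two-sided exact permutation p = 1). All lists were then reduced to the 18324 peaks of lowest q, so that the whole of ZR_GSK343 replicate 1 stood beside the strongest peaks of the other libraries. The lowest −log10 q kept was 3.50 and 15.1 in ZR_GSK343, against 21.5 and 21.6 in ZR. Many peaks were tied at the cut. Of these, 275 of 1053 were kept in ZR_GSK343 replicate 2, and 301 of 922 and 795 of 920 in ZR replicates 1 and 2. In ZR_GSK343 replicate 1 all 482 were kept. Presence or absence right at the cut therefore does not reflect a difference in q. Equal length was not equal coverage. The median peak width was 333 and 681 bp in ZR_GSK343, against 796.5 and 755 bp in ZR, and these peaks covered 8.14 and 14.1 Mb in ZR_GSK343, against 16.7 and 15.9 Mb in ZR. The groups did not overlap in width, and the mean difference, ZR_GSK343 minus ZR, was -268.75 ± 247.8 bp (SD of the difference, n = 2 each; two-sided exact permutation p = 0.333, the smallest that 2 against 2 allows). Depth per library is unknown, since the lists hold no read counts. At equal length the Jaccard index of covered bases was 0.412 between the ZR_GSK343 libraries and 0.710 between the ZR libraries. It was 0.474 and 0.486 between ZR_GSK343 replicate 2 and the ZR libraries, so that this library shared more with ZR than with its own replicate.

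**Figure D1:**
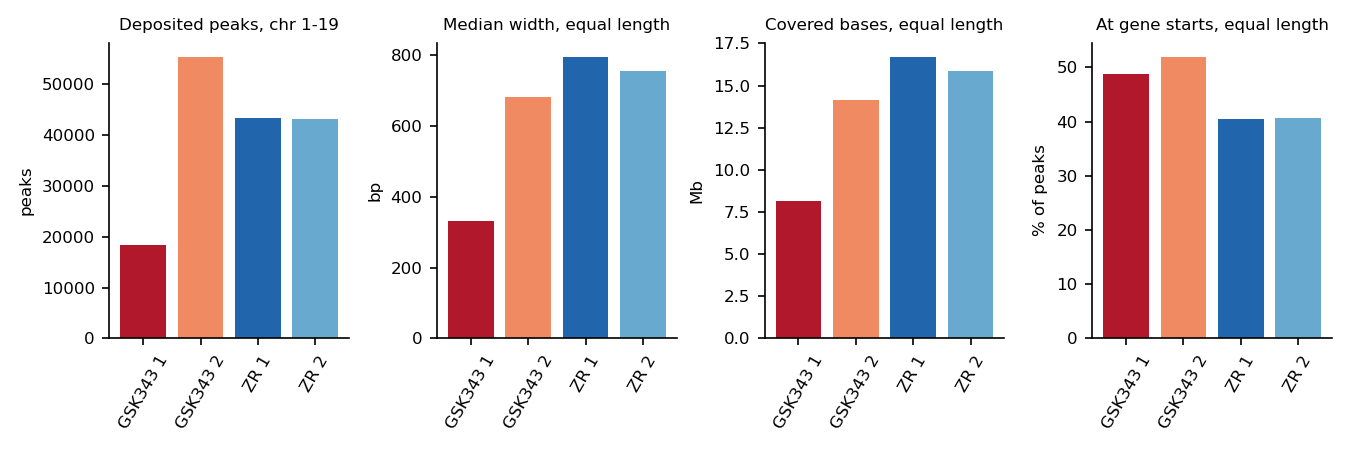
Deposited peaks on chromosomes 1 to 19, and the median width (bp), covered bases (Mb) and share at gene starts (%) of the peaks at equal list length, 1 bar per library, with ZR_GSK343 in red and ZR in blue. ZR_GSK343 replicate 1 has the fewest and narrowest peaks, and both ZR_GSK343 bars for gene starts (48.8 and 52.0%) stand above both ZR bars (40.4 and 40.8%).

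The labelled cell type was read at gene starts. Vim, an intermediate filament gene, Fabp7, a radial glia gene, and Sox9 had a gene-start peak in all 4 lists. The defining neural stem cell genes Sox2, Nes and Sox1 had one in none of the 4 lists at equal length, and Sox2 and Nes had none in the deposited lists either. Of the microglia list, Tmem119 had a peak in all 4 lists, while Ptprc, Csf1r, Aif1 and Cx3cr1 had none at equal length.

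With GSK343, gene starts took up a larger part of the equal-length lists and distal sites a smaller one. Peaks within 1 kb of a gene start made up 48.8 and 52.0% of the list in ZR_GSK343, against 40.4 and 40.8% in ZR. The groups did not overlap, with a mean difference of 9.82 ± 2.25 percentage points (SD of the difference, n = 2 each; two-sided exact permutation p = 0.333). The 4 lists merged into 30922 regions. A region is called gained where both ZR_GSK343 lists and neither ZR list had a peak, and lost in the reverse case. Gained regions numbered 2281, a background of 7.38%, lost regions 4244, or 13.7%, and 8361 regions were in all 4 lists. Of the gained regions 1114 (48.8%) lay at a gene start, against 124 (2.92%) of the lost and 6407 (76.6%) of those in all 4 lists. Lost regions lay inside genes in 49.7% and between genes in 47.4% of cases, and gained regions in 17.0% and 34.2%. Read by place, 11.0% of the 10105 regions at gene starts were gained and 1.23% lost, and of the 20817 regions away from them 5.61% were gained and 19.8% lost.

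Single lists held many regions of their own. ZR_GSK343 replicate 1 alone held 5665 regions, of which 7.22% were at gene starts, and ZR_GSK343 replicate 2 alone held 2575, of which 28.2% were. A further 3241 regions were in ZR_GSK343 replicate 2 and both ZR lists but missing from ZR_GSK343 replicate 1, while only 233 were missing from ZR_GSK343 replicate 2 in the same way. The split of the regions therefore rested unequally on the 2 treated libraries. Without ZR_GSK343 replicate 1 the gained regions numbered 4902, and without ZR_GSK343 replicate 2 they numbered 8153, with 37.6 and 19.5% at gene starts.

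**Figure D2:**
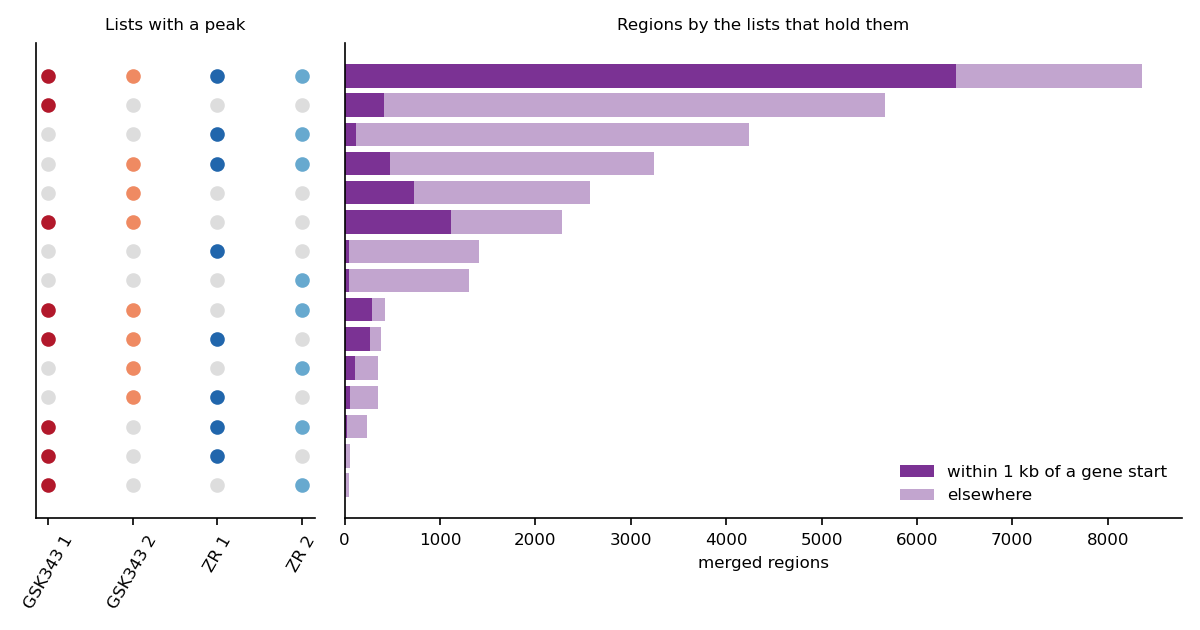
Merged regions (x axis, number of regions) for each combination of lists that held them, marked by filled dots on the left in the order ZR_GSK343 1 and 2, ZR 1 and 2, with regions within 1 kb of a gene start in dark purple. The 2281 gained regions are dark in 48.8% of their length and the 4244 lost regions in 2.92%.

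The deposited lists show how far the calls depend on rank. Of the 2281 gained regions, 1666 had a peak further down both deposited ZR lists, and 290 (12.7%) had one in neither. These 290 regions had 12.8% at gene starts, against the 48.8% above. Taking the lists as deposited, only 8.16% of gained regions lay at gene starts. The gain at gene starts is therefore one of rank within a list in most places, and not one of presence against absence. Of the lost regions, 1421 (33.5%) had no peak in either deposited ZR_GSK343 list, and 28 (1.97%) of those lay at gene starts. The other 2823 had a peak in the deposited list of ZR_GSK343 replicate 2 and not of replicate 1, whose whole list was already in use.

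A second measure used only regions present in all 4 lists. Each region's q rank was turned into a percentile of its list, with 100 the strongest. At the 6407 shared gene starts the median percentile was 75.8 and 79.9 in ZR_GSK343, against 72.0 and 72.4 in ZR. At the 1954 shared distal regions it was 52.1 and 56.4 in ZR_GSK343, against 67.1 and 67.6 in ZR. Gene starts stood above distal regions by 23.6 and 23.5 percentile points in ZR_GSK343, against 4.86 and 4.83 in ZR. The groups did not overlap, and the difference of 18.7 ± 0.0885 points was larger than the spread within either group (SD of the difference, n = 2 each; two-sided exact permutation p = 0.333). The value depends on which regions all lists share: without ZR_GSK343 replicate 1 it was 31.1 points.

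Regions of the fusion line were fixed in libraries outside the comparison, as those with a peak in both ZR_dmCitra lists and in neither EV list at 34015 peaks per list. ZR_dmCitra cells also received citraconate and EV cells did not, so the fusion and citraconate cannot be told apart in this set. Of these 13156 regions, 7.61 and 21.5% had a peak in the ZR_GSK343 lists, against 45.3 and 44.7% in the ZR lists. Both treated libraries were below both untreated ones, with a mean difference of -30.4 ± 9.83 percentage points (SD of the difference, n = 2 each; two-sided exact permutation p = 0.333). At equal covered bases in place of equal peak number the difference was -5.82 points, with ZR_DMSO in place of ZR it was -12.8 points, with the full deposited lists -53.5 points and with −log10 q of at least 5 -54.7 points. At the 444 gene starts among the 13156 regions, 20.9 and 38.7% had a peak in ZR_GSK343, against 44.6 and 40.5% in ZR. ZR_GSK343 replicate 2 was thus close to ZR there. Away from gene starts the shares were 7.14 and 20.9% in ZR_GSK343, against 45.3 and 44.8% in ZR. The opposite set, in both EV lists and neither ZR_dmCitra list, included 938 regions at gene starts. Of these, 16.0 and 20.3% had a peak in the ZR_GSK343 lists, against 0.746 and 0.533% in the ZR lists. Away from gene starts the same set had 1.67 and 1.73% in ZR_GSK343, against 0.825 and 0.770% in ZR. Among regions open in all 4 ZR_dmCitra and EV lists, gene starts were found in 88.3 and 97.0% of cases in ZR_GSK343, against 83.0 and 83.7% in ZR. Distal regions of that set were found in 37.1 and 61.0% of cases in ZR_GSK343, against 66.0 and 65.4% in ZR.

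**Figure D3:**
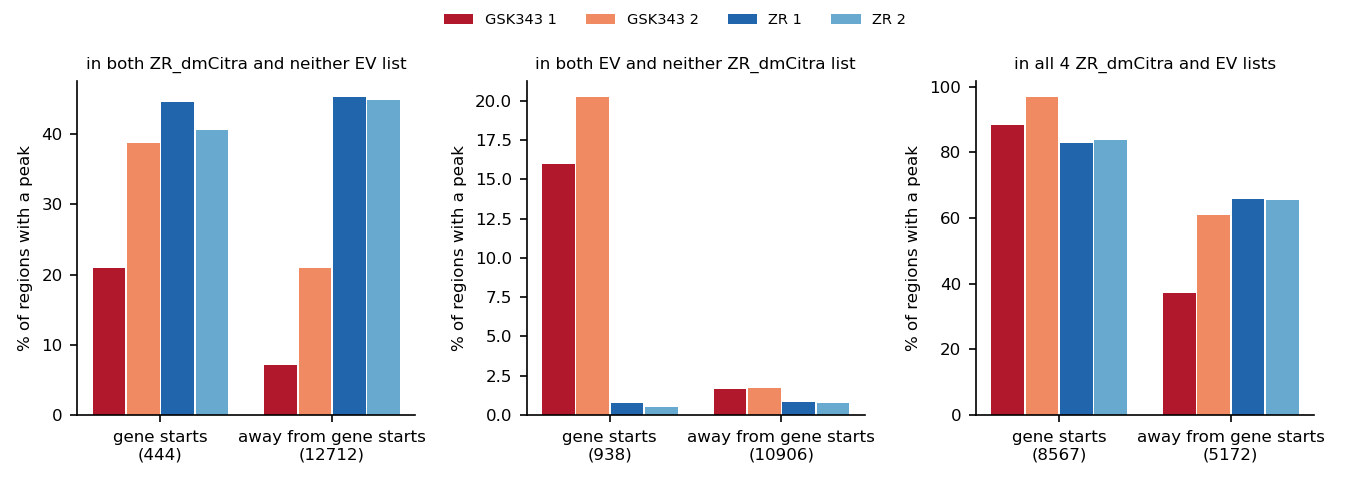
Share of regions (%) with a peak at equal list length, by place, for 3 sets fixed in the ZR_dmCitra and EV libraries, with the number of regions in brackets and 1 bar per library, ZR_GSK343 left of ZR. Regions in ZR_dmCitra and not in EV are found less often in both ZR_GSK343 libraries than in both ZR libraries. The values are 7.14 and 20.9%, against 45.3 and 44.8%, away from gene starts, and 20.9 and 38.7%, against 44.6 and 40.5%, at gene starts. Gene starts in EV and not in ZR_dmCitra are found more often (16.0 and 20.3%, against 0.746 and 0.533%).

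The called regions were looked up in the libraries not used to call them, at the same list length except for ZR_DMSO replicate 1, which has only 11806 peaks. Gained gene starts had a peak in 52.3 and 55.1% of cases in EV and in 67.1 and 70.3% in Citraconate_50K, but in 16.3 and 21.4% in ZR_dmCitra, 14.0 and 11.6% in DMSO_50K and 8.44 and 19.5% in ZR_DMSO. Gained regions away from gene starts followed another order, with 43.1 and 53.6% in ZR_DMSO and 15.2 and 18.1% in EV. Lost regions had a peak in 70.8 and 68.0% of cases in ZR_dmCitra, 58.0 and 60.4% in DMSO_50K, 36.8 and 35.5% in Citraconate_50K, 27.5 and 49.4% in ZR_DMSO and 13.7 and 13.5% in EV. DMSO_50K, labelled empty vector, thus lay nearer to ZR_dmCitra than to EV, against its cell line label. Citraconate_50K, labelled fusion, lay nearer to EV at gained gene starts, against its label. At lost regions Citraconate_50K lay between EV and ZR_dmCitra, within the range of the ZR_DMSO libraries. At gained regions away from gene starts it had 34.5 and 34.4%, between EV and ZR_DMSO. The distal gained regions were thus most frequent in the DMSO-titled fusion cells, whose lists are short and narrow like that of ZR_GSK343 replicate 1. The part that DMSO and list quality have in these calls was not tested.

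**Figure D4:**
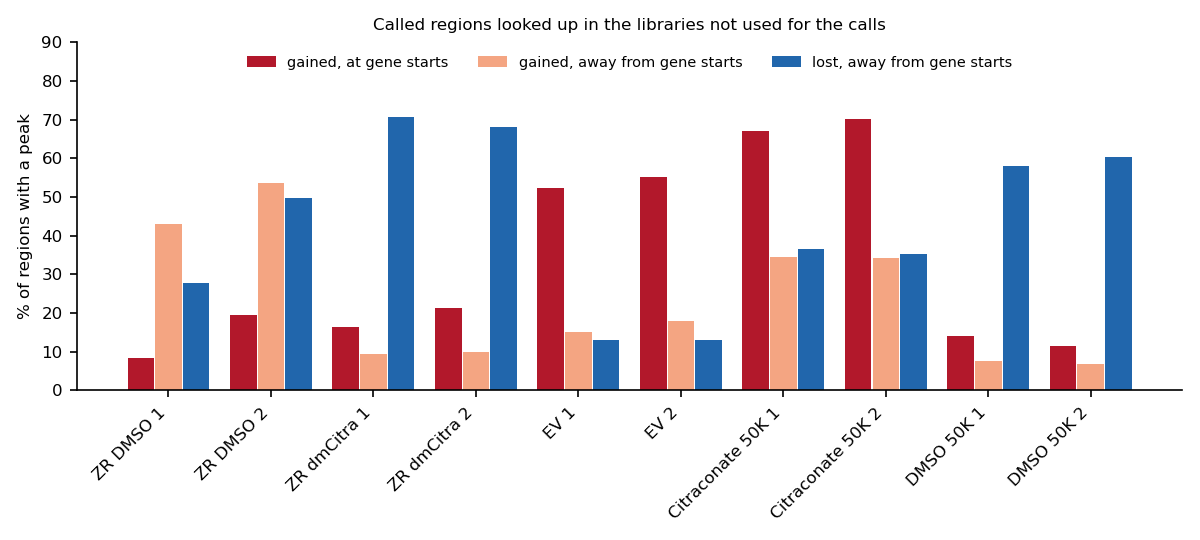
Share of called regions (%) with a peak in each library outside the comparison, for gained regions at gene starts (red), gained regions elsewhere (salmon) and lost regions away from gene starts (blue). Gained gene starts are most frequent in Citraconate_50K (67.1 and 70.3%) and EV (52.3 and 55.1%), and gained distal regions in ZR_DMSO (43.1 and 53.6%).

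Genes were called in the same way from peaks within 1 kb of their start, or of either gene end where the start is not known. A peak in at least 1 list was present at 10709 of 20661 protein-coding genes. Of these 1143 were gained, a background of 10.7%, 96 were lost, or 0.896%, and 7122 were in all 4 lists. At equal length 9211 and 10182 genes had a peak in ZR_GSK343, against 8121 and 8174 in ZR. Of the gained genes 997 also had a weaker peak in both deposited ZR lists and 35 had none in either. Of the lost genes 28 had no peak in either deposited ZR_GSK343 list. With the lists as deposited 154 genes were gained and 138 lost, and with −log10 q of at least 5, 136 were gained and 150 lost. The excess of gained over lost genes was therefore not seen with these lists of unequal length. Leaving out ZR_GSK343 replicate 1 gave 1814 gained genes, and leaving out ZR_GSK343 replicate 2 gave 575 lost genes. With ZR_DMSO in place of ZR 2016 genes were gained and 22 lost, with the same ZR_GSK343 libraries on the other side and lists of 11806 peaks. Of these, 517 were also gained against ZR, which is 45.2% of the genes gained against ZR and 25.6% of those gained against ZR_DMSO. In what follows a rank is a gene's place in its own library's list, with 1 the strongest, and not a level. A ZR rank beyond 18324 is below the length compared, so it shows how far down the full list the peak stood.

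The drug's target and its complex were open in both groups. Ezh2 had a gene-start peak at rank 4121 and 3313 of 18324 in ZR_GSK343, against 3381 and 3398 in ZR. Eed was at rank 1690 and 4757 in ZR_GSK343, against 5985 and 3980 in ZR, so that the groups overlapped. Suz12 was at rank 4997 and 7891 in ZR_GSK343, against 12977 and 13277 in ZR, higher in both treated lists. Of the PRC2 and H3K27 demethylase list, 11 of 12 genes on chromosomes 1 to 19 had a peak, 3 were gained against the background of 10.7%, 0 were lost and 7 were in all 4 lists. Without ZR_GSK343 replicate 1, 3 of 11 were gained against a background of 17.5%, and against ZR_DMSO 2 of 11 were gained, below the 21.0% over all genes. Ezh1, the paralogue of Ezh2, was gained at ranks 9777 and 5672 in the ZR_GSK343 lists, against rank 32946 in the deposited list of ZR replicate 1 and no peak in that of ZR replicate 2. Epop, a cofactor of PRC2, ranked 12771 and 9867 in ZR_GSK343, against 37518 in deposited ZR replicate 1 and no peak in ZR replicate 2. Phf19, a PRC2 partner that reads methylated H3K36, ranked 11731 and 12060 in ZR_GSK343, against 36042 and 33233 in the deposited ZR lists. Kdm6b, an H3K27 demethylase, had no gene-start peak in the 4 lists at equal length, and its X-linked relative Kdm6a had one in all 4 deposited lists. These are ranks at a gene's start and say nothing of its protein.

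Of the PRC1 list 19 of 20 genes had a peak, 5 were gained, 0 were lost and 11 were in all 4 lists. Phc2, a polyhomeotic subunit, ranked 8019 and 5907 in ZR_GSK343, against 27908 and 27472 in the deposited ZR lists. Ring1, a ubiquitin ligase of the complex, ranked 8853 and 9116 in ZR_GSK343, against 38063 and 28893 in the deposited ZR lists. Cbx2, a reader of methylated H3K27, ranked 9802 and 6928 in ZR_GSK343, against 25386 and 19668 in the deposited ZR lists. Pcgf6, a subunit of variant PRC1, ranked 6027 and 11670 in ZR_GSK343, against 31493 and 29042. Cbx7, another reader, ranked 10025 and 15085 in ZR_GSK343 and had no peak in either deposited ZR list; it is named here beyond the naming rule, after its values were seen. The gained share was 26.3%, beside 10.7% over all genes with a peak. Between 5 and 7 genes of the list were gained when each of the 4 libraries was left out in turn. These were 26.3 to 36.8% of those with a peak, but the background also rose, to between 13.3 and 17.5%. Against ZR_DMSO 8 of 18 were gained, where the background was 21.0%.

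The textbook targets of PRC2 did not move as 1 group. Of 39 Hox genes, 2 had a peak at equal length. Hoxa4 was in all 4 lists, Hoxa7 was not called, and 0 were gained. Among 88 developmental transcription factors 28 had a peak, 6 were gained (Gbx1, Foxf2, Tbx2, Lhx6, Gbx2 and Lhx4), 0 were lost and 16 were in all 4 lists. The gained share was 21.4%, beside 10.7% over all genes with a peak. Only 0.896% of all those genes were lost, so 0 lost of 28 says little. Without ZR_GSK343 replicate 1, 6 of 26 were gained (background 17.5%), and against ZR_DMSO 9 of 24 (21.0%). Gbx1, a homeobox gene, ranked 9169 and 9179 in ZR_GSK343, against 29871 and 35992 in the deposited ZR lists. Foxf2, a forkhead gene of mesenchyme, ranked 6631 and 10509 in ZR_GSK343, against 19192 and 26682 in the deposited ZR lists. The homeobox gene Gbx2 and the T-box gene Tbx2 came lower, at poorer ranks of 17165 and 15670. At Lhx4 the best peaks of the 2 ZR_GSK343 libraries did not overlap each other.

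Morphogens and their antagonists showed the widest gap in the number of genes per list. Of 49 genes 18 had a peak, with 12 and 14 in ZR_GSK343, against 3 and 4 in ZR. The gained ones numbered 5 (27.8%, beside a background of 10.7%), all of them WNT ligands, and only Fgf9 was in all 4 lists. Wnt9a ranked 3787 and 6377 in ZR_GSK343, against 25344 and 26527 in the deposited ZR lists. Its best peaks at chr11:59306688-59307137 and chr11:59306480-59307398 covered the promoter printed above. Wnt4 ranked 15731 and 16083 in ZR_GSK343 and had no peak in either deposited ZR list. Wnt5a ranked 16790 and 9078 in ZR_GSK343, against 27215 and 25116 in the deposited ZR lists. Wnt5b, at 9268 and 17873 in ZR_GSK343, against 26415 and 19278 in the deposited ZR lists, and Wnt10a, where the best peaks of the 2 treated libraries lay apart, complete the 5. Counts of gained members were 10 of 15 without ZR_GSK343 replicate 1 (background 17.5%) and 8 of 13 without ZR_GSK343 replicate 2 (14.6%). Against ZR_DMSO 1 of 10 members was gained, with a background of 21.0%. In the deposited lists 12 and 29 members had a peak in ZR_GSK343, against 14 and 16 in ZR, so the groups overlapped there.

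**Figure D5:**
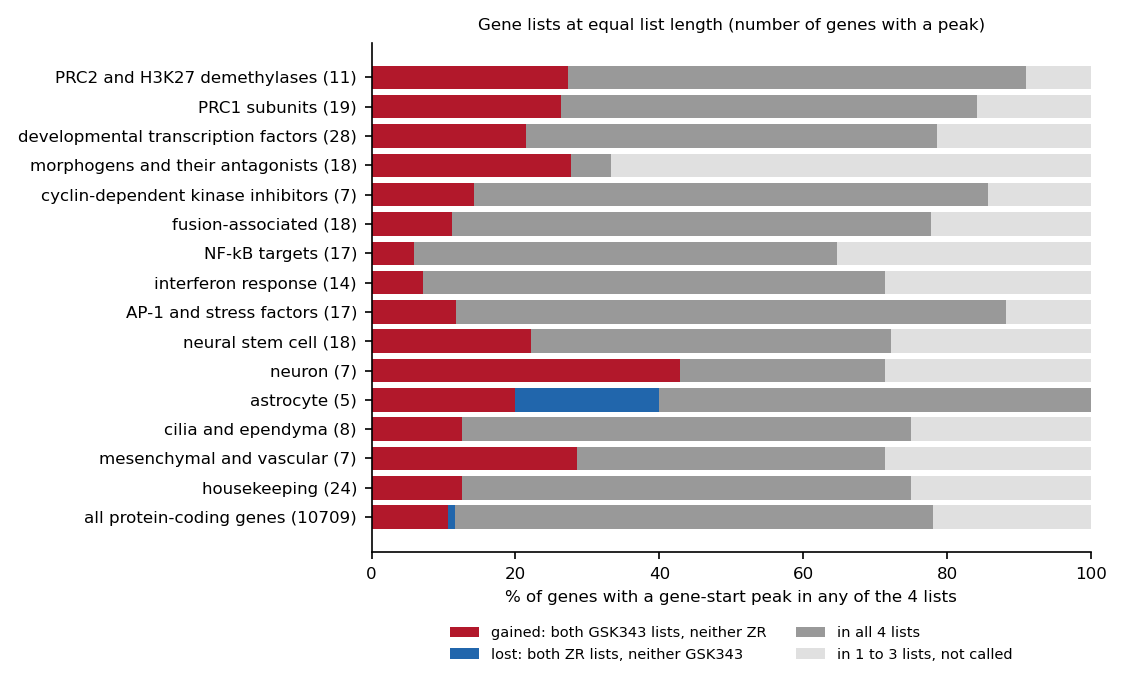
Share (%) of the genes with a gene-start peak in any of the 4 lists that were gained (red), lost (blue), in all 4 lists (dark grey) or not called (light grey), for each gene list with at least 5 such genes, numbers in brackets, and for all protein-coding genes in the bottom row (10.7% gained). Morphogens have 5 gained of 18 and 1 in all 4 lists, and PRC1 subunits 5 gained of 19.

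Genes tied to the fusion and to inflammation had shares in all 4 lists near the background. These were 66.7% of fusion-associated, 58.8% of NF-kB and 64.3% of interferon genes with a peak, against 66.5% over all genes with one, and the difference was not tested. Of the fusion-associated list 18 of 21 genes had a peak, 2 were gained, 0 were lost and 12 were in all 4 lists, close to the background. Notch1, the receptor whose promoter is printed above, ranked 7863 and 3813 in ZR_GSK343, against 21729 and 22542 in the deposited ZR lists. Fgfr3, a fibroblast growth factor receptor, ranked 6177 and 12567 in ZR_GSK343, against 42496 and 40551. Rela was in all 4 lists, at ranks 2951 and 2103 in ZR_GSK343, against 16728 and 14779 in ZR, and the groups did not overlap. Ccnd1, encoding cyclin D1, had a peak only in ZR_GSK343 replicate 2 at equal length, and in both deposited ZR lists. Its ranks there were 19872 and 18355, the second just past the length compared. L1cam, on chromosome X, had no gene-start peak in any of the 4 deposited lists. Of the NF-kB targets 17 of 28 had a peak, 1 was gained and 10 were in all 4 lists. The gained one, Tnf, ranked 13280 and 9631 in ZR_GSK343, against 31342 and 30902 in the deposited ZR lists. Acod1, which makes itaconate, had a peak only in ZR replicate 1 at equal length, and in the deposited lists of ZR_GSK343 replicate 2 and both ZR libraries. Among interferon response genes 14 had a peak, 1 was gained (the regulator Irf1) and 9 were in all 4 lists. Of the AP-1 and stress factors 17 had a peak, 2 were gained and 13 were in all 4 lists. The gained shares were 5.88% for NF-kB targets, 7.14% for interferon response genes and 11.8% for AP-1 and stress factors, beside 10.7% over all genes. Mafg, a small MAF protein, ranked 5763 and 6558 in ZR_GSK343, against 20188 and 28413, and Egr3, a zinc finger gene, 16825 and 8598, against 29106 and 30666 in the deposited ZR lists.

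The cell-type lists were small at gene starts. Their counts stand beside 10.7% gained and 0.896% lost over all genes with a peak, and the differences were not tested. Of the neural stem cell list 18 of 29 genes had a peak and 4 were gained, the Notch pathway genes Notch1, Dll1 (a ligand) and Lfng (a glycosyltransferase that modifies Notch), and the RNA-binding gene Msi1. Lfng ranked 9217 and 7400 in ZR_GSK343, against 28028 and 20340 in the deposited ZR lists, and Dll1 11516 and 8158, against 33499 and 35249. Msi1 ranked 15805 and 16124 in ZR_GSK343 and had no peak in either deposited ZR list. Of the neuron list 7 genes had a peak and 3 were gained, Gad1 (GABA synthesis) and the transcription factor genes Dlx2 and Neurog2, but at Dlx2 and Neurog2 the best peaks of the 2 ZR_GSK343 libraries lay apart. Against ZR_DMSO 0 of 5 neuron genes were gained, where the background was 21.0%. Of 5 astrocyte genes with a peak Fgfr3 was gained and Sparcl1, a secreted matrix protein gene, was lost, at ranks 15379 and 15697 in ZR and 22644 in the deposited list of ZR_GSK343 replicate 2. The oligodendrocyte list had 2 genes with a peak and 0 gained. The cilia and ependyma list had 8 with a peak and 1 gained, Foxj1, the master regulator of motile cilia, at ranks 5759 and 9053 in ZR_GSK343, against 23912 and 19666 in the deposited ZR lists. The mesenchymal and vascular list had 7 with a peak and 2 gained, Col1a1 and Snai1. The microglia list had 3 with a peak and 1 gained, Spi1, a myeloid transcription factor, at ranks 4580 and 6447 in ZR_GSK343, against 40435 and 27210 in the deposited ZR lists. Of 7 cyclin-dependent kinase inhibitor genes Cdkn1c was gained, at ranks 12244 and 11439 in ZR_GSK343, against 19870 and 20491, and 5 were in all 4 lists. Cdkn2a, a known Polycomb target, was among these 5, at ranks 11941 and 6080 in ZR_GSK343, against 17740 and 9253 in ZR, with overlap between the groups. Its best peak in ZR replicate 1, at chr4:89282055-89282530, lay apart from that of the other 3 libraries (chr4:89294238-89295595 in ZR_GSK343 replicate 2), so that rank belongs to another site of the gene. Housekeeping genes had 24 with a peak, of which 3 were gained (Eef2, Psmb4 and Psmb2) and 15 were in all 4 lists, a share of 12.5% gained. Apart from Sparcl1, for which either gene end counted, no member of the 18 lists was lost.

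Away from gene starts the balance was reversed, and losses outnumbered gains near most groups. Regions more than 1 kb from a start were assigned to the nearest one within 100 kb. Of 15474 such regions 18.8% were lost and 5.80% gained. Near NF-kB targets 13 of 42 regions were lost and 0 gained. Nfkb1, the p50 subunit gene, had 3 lost regions, and Bcl2l1 (cell survival), Ptgs2 (prostaglandin synthesis) and Vcam1 (adhesion) had 2 each. Ccl2, Ccl20, Cxcl1 and Tnfaip3 had 1 each. Near neuron genes 9 of 30 were lost and 1 gained, with 4 at Snap25 and 3 at Gad2. Near neural stem cell genes 11 of 58 were lost and 5 gained, with 3 lost at Notch2 and 3 at Id2, an inhibitor of helix-loop-helix factors. Near morphogens 13 of 69 were lost and 3 gained, and near developmental transcription factors 21 of 141 were lost and 5 gained. The lost shares for morphogens and developmental transcription factors were 18.84 and 14.9%, close to or below that over all such regions. These counts were 5 lost of 42 for the fusion-associated genes, 6 of 35 for AP-1 and stress factors and 2 of 17 for PRC2. Regions near 1 gene are not independent of each other.

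The strongest single losses were distal. The lost region of best rank with no peak in either deposited ZR_GSK343 list lay between genes at chr2:114088549-114089471, 35674 bp from the start of Actc1 (cardiac actin), at ranks 3460 and 3376 in ZR. The next were inside Ifi203 (chr1:173922449-173923055, ranks 3513 and 2834) and Tmtc1 (chr6:148318205-148319265, ranks 3716 and 2999). The only region of the first 10 counted at a gene start was at Atf6, a sensor of stress in the endoplasmic reticulum. It lay at chr1:170704973-170705738, at ranks 3745 and 3428. The start of Atf6 is not known here, so either gene end counted, and the region may lie at the far end of the gene. The remaining ones were inside Adamts16, Snrpb2, Dcaf6 and Gpc6 and nearest to Cep128 and Rassf9. All 10 had a peak in both deposited ZR_dmCitra lists and both DMSO_50K lists.

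The strongest gains with no deposited ZR peak were also distal, and 0 of the first 10 lay at a gene start. The first, at chr1:122357131-122357335, was 205 bp wide and ranked 104 and 306 in ZR_GSK343. The second, at chr16:45352972-45353136, lay 55917 bp from the start of Cd200 and ranked 165 and 1677. Others lay inside Syt1, Alk, Cd163l1 and Akap6, and nearest to Sfi1, Pdlim5, Isx and Gm45988. Of these 10, only the region near Sfi1 had no peak in either deposited ZR_DMSO list. Distal gains were also packed together. In 11 stretches of 1 Mb that each held at least 10 of them lay 311 of the 1167 distal gained regions (26.6%). The densest held 68 on chromosome 2 among zinc finger genes such as Zfp970 and 64 on chromosome 8 among defensin genes such as Defb33. In these stretches 80.4 and 85.5% of gained regions had a peak in ZR_DMSO, against 29.6 and 41.9% of those elsewhere. Without these stretches 56.2% of gained regions lay at gene starts.

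Promoters of gained genes resembled those open in all 4 lists in base content, and those of lost genes did not. Of 1143 gained genes 939, and of 96 lost genes 66, have a RefSeq promoter of 300 bases. The median number of CpG dinucleotides was 23 in gained promoters, 24 in those in all 4 lists, 5 in lost ones and 4 in those with no peak, beside 14 over all 16456 promoters. Median GC content was 62.7% for gained genes, 63.0% for genes in all 4 lists and 48.5% for lost genes. Gained promoters and those in all 4 lists were thus close to each other, with 10 or more CpG dinucleotides in 90.5 and 92.0% of them, and the lost promoters stood apart from both. Motifs were searched on both strands as plain letters, none of which contains another. CCAAT was present in 28.9% of gained promoters, 42.1% of those in all 4 lists and 51.5% of lost ones, beside 38.9% over all promoters. The AP-1 motif TGANTCA was present in 2.98% of gained, 3.90% of all-list and 15.2% of lost promoters (10 of 66), beside 7.17% over all. The GC box GGGCGG was present in 66.0% of gained, 71.7% of all-list and 16.7% of lost promoters, beside 47.3% over all. The E-box CANNTG was present in 62.0% of gained and 78.8% of lost promoters, beside 68.4%, the ETS motif CCGGAAG in 169 of the 939 gained and 7.58% of lost ones, beside 12.2%, and the CRE TGACGTCA in 2.77% of gained and 4.55% of lost ones, beside 2.42%. A match is a description of letters, not of binding.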

How the data were processed

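ATAC-seq was made from 50000 cells per library, per the labels' protocols. The submitters' processing notes name the build mm10 and the tools BWA, SAMtools and Picard, with no version or order. Per the peak names in the files, MACS2 called peaks in each library. MACS2's version, its settings and any Tn5 shift were not given in the sources used here. The deposited score, the fold (a ratio to background) and the −log10 p-value and −log10 q-value of a peak are the authors' own, used only to rank or filter peaks within a list. Depth is unknown without read counts, and no counting interval was made.

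Lists on chromosomes 1 to 19 were reduced to 18324 peaks by −log10 q, and overlapping peaks (at least 1 bp) were merged. Gene starts came from RefSeq GRCm38.p6, in mm10 coordinates, for 16456 of 20661 protein-coding genes; for the other 4205, without a known start, a peak within 1 kb of either gene end counted. Two-sided exact permutation tests were run on library means, and calls were counted without a test. The members and the 18 gene lists were chosen with earlier results of these data known. Text names up to 4 gained and 4 lost members per list by the poorer rank, the 10 best gained and 10 best lost regions without a deposited peak in the other group, and Ezh2, Eed, Suz12, Kdm6b, Cdkn2a, Acod1, Rela, Ccnd1 and L1cam; members beyond this rule (such as Gbx2, Lhx4, Cbx7 and Wnt5b, and genes counted by distal regions) were named after their values were seen. Zfta, Mx1, Mx2, Dnai1 and Dnai2 had no match among the protein-coding genes used. Alternatives were the full lists, −log10 q of at least 5, equal covered bases, other list lengths, ranking by fold, 50% cover, summits, windows of 500 bp and 2 kb, chromosome X, ZR_DMSO as control, replicate pairing and leaving out each library. The calling steps were run on simulated lists of equal length with the same spread of widths and q. That run does not cover lists that differ in length, width or lowest q, as the deposited ones do. Python 3.11.15, pandas 2.3.3, numpy 2.4.6 and scipy 1.17.1 were used.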

Additional observations from a re-analysis of the deposited data

Results flagged for a closer look

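Chromosome Y and contigs not placed on a chromosome lie outside the comparisons, and both held a larger share of the deposited peaks in ZR_GSK343 than in ZR. Chromosome Y held 2.26 and 1.07% of all deposited peaks in ZR_GSK343 (mean 1.66%), against 0.3002 and 0.311% in ZR (two-sided exact permutation p = 0.333, n = 2 each). Unplaced and random contigs held 1.40 and 0.736% in ZR_GSK343 (mean 1.07%), against 0.282 and 0.286% in ZR (two-sided exact permutation p = 0.333, n = 2 each). The ZR_DMSO libraries, with short and narrow lists, had 1.95 and 1.54% on chromosome Y and 1.31 and 1.24% on contigs. The cause was not tested.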

How the results depend on the processing

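Of 152 values computed under alternatives, 11 (replicate block) repeat the main values by construction and 10 (ranking by fold) equalled them. Of all 152, 3 reversed and 39 counts or shares moved. The other 110 were counts within 1.5 times the main count, shares that stayed within their 95% binomial interval, or tested differences that kept their direction, whatever their size. Among these last, the fusion-region difference ranged from -54.7 points (−log10 q of at least 5) to -5.82 (equal covered bases), and the width difference from -442.75 bp without ZR_GSK343 replicate 2 to -94.75 bp without ZR_GSK343 replicate 1. The rank difference of shared regions ranged from 17.957 points (window of 500 bp) to 31.1 without ZR_GSK343 replicate 1. With the full deposited lists, 9974 regions were lost, 154 genes were gained and 138 lost, and 8.16% of gained regions were at gene starts. With −log10 q of at least 5 these were 10198, 136, 150 and 9.04%. At equal covered bases 1275 regions were lost, 4042 were in all 4 lists, 2379 genes were gained and 56 lost, and 82.6% of gained and 4.24% of lost regions were at gene starts. At the length of the shortest list of the series those shares were 70.4 and 4.34%. With ZR_DMSO as control the ZR_GSK343 lists were longer by 20918 peaks and wider by 419 bp, both reversed; 1644 regions were lost, 4502 were in all 4 lists, 2016 genes were gained and 22 lost, and 83.5% of gained regions were at gene starts. With a peak over at least 50% of a region, 1418 regions were gained, 3217 were in all 4 lists, and 39.1% of gained and 7.76% of lost regions were at gene starts. Lost regions at gene starts were 2.05% with a window of 500 bp and 4.78% with 2 kb. Chosen after seeing the data, either end of every gene gave 46.4% of gained and 3.58% of lost regions, and leaving out dense stretches 56.2% of gained ones. The cause of these shifts was not tested.

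Leaving out each library in turn gave a difference in deposited peaks of -24918 to 12127, reversed without ZR_GSK343 replicate 1. It gave 2678 to 8153 regions gained, 4478 to 7486 lost, 1423 to 1814 genes gained and 119 to 575 lost, with 19.5 to 51.9% of gained and 3.04 to 7.99% of lost regions at gene starts. Without ZR_GSK343 replicate 1 4902 regions and 1814 genes were gained, and without ZR_GSK343 replicate 2 8153 regions were gained and 7486 regions and 575 genes lost. Every such run kept 18324 peaks per list and asked for 1 list fewer, so higher counts follow from the looser rule. Depth is unknown, and with 2 libraries a group no exact permutation p can fall below 0.333.

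Shared numbers did not pair the replicates (r = 0.0421 across 8361 regions, 2 pairs). Pairing by replicate block enters neither the mean differences nor the counts. The mean difference in deposited peaks of -6395.5 and every count were therefore unchanged by construction. The rank of shared regions was not run for full lists, −log10 q of at least 5 or equal bases, whose lengths differ.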

Other observations

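The following genes were picked after their values were seen, because they were lost, so their counts describe the choice. In the p200 family of interferon-inducible genes on chromosome 1, 5 of 13 genes were lost (Ifi205, Ifi206, Ifi208, Ifi209 and Ifi214). Of the others 1 was in all 4 lists (Ifi204), 4 were not called, 3 had no peak and 0 were gained. Over all genes with a peak 0.896% were lost, a share that leaves out genes without a peak, such as those 3. Ifi206 ranked 8718 and 9049 in ZR and Ifi209 10143 and 8359, and neither had a gene-start peak in a deposited ZR_GSK343 list. The members have near-identical copies, and how the alignment divided reads among them is not known. Aim2, a DNA sensor gene beside them, ranked 8757 in ZR_GSK343 replicate 2, against 1732 and 1179 in ZR, and had no peak in ZR_GSK343 replicate 1.

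Lost genes linked to cilia, also picked from the lost genes, were Cfap97 (ranks 1196 and 1234 in ZR, with no deposited ZR_GSK343 peak), Wdr63 (3088 and 4370), the axonemal dynein gene Dnah3 (9327 and 7987), the radial spoke gene Rsph4a (9407 and 9401) and Efhb (12065 and 11713). The cilia and ependyma list, which was not drawn from them, had 0 lost, 1 gained (Foxj1) and 5 in all 4 lists, of 8 genes with a peak. The genes with the most distal losses were Mbnl2 (8 of 10 regions), Plekha5 (8 of 9) and Plcb4 (7 of 12), each with 0 gained. By chromosome, 15.1% of regions were gained and 5.81% lost on chromosome 11, against 4.19% gained and 22.5% lost on chromosome 3.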
